A study of Mus musculus with 33 samples.

Results

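Ovaries labelled DE were compared with ovaries labelled E by sequencing of polyadenylated RNA. In usual usage these abbreviations of the estrous cycle stand for diestrus and estrus; the labels do not spell them out. The comparison took every library with these labels, 4 of DE and 4 of E, out of 33 libraries of mouse ovary in the whole series. All 8 carry the genotype label WT and come from the third experiment of the series, whose other libraries are 4 labelled PE (proestrus in usual usage) and 4 whose stage label reads KO (anestrus) beside the genotype WT. The labels give no strain, age or treatment, and nothing says that the libraries came from separate animals. The p-values therefore measure the spread between these libraries, which may be technical. Libraries are called DE 1 to DE 4 and E 1 to E 4, as the labels number the replicates.

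The mouse estrous cycle is a short ovarian cycle in which follicles grow, ovulate and turn into corpora lutea. The surge of luteinizing hormone (LH) comes at proestrus and ovulation follows towards estrus, while at diestrus corpora lutea of the last ovulation secrete progesterone and the next follicles grow. Granulosa cells surround the oocyte and make estrogen and inhibins, theca and interstitial cells make androgens, and luteal cells turn cholesterol into progesterone. The oviduct, a tube lined by ciliated and secretory epithelium and wrapped in smooth muscle, lies against the ovary, and both are embedded in fat.

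The 8 libraries held between 10.88 M and 15.93 M estimated counts each. The labelled tissue was checked against its markers: Foxl2, a transcription factor of granulosa cells, held 917 to 2787 counts, Gdf9, an oocyte growth factor, 281 to 1316 counts, and Cyp11a1, the first enzyme of steroid synthesis, 25737 to 103714 counts. Ovarian markers were therefore present in all 8 libraries. Levels below are counts-per-million (CPM) values on library sizes scaled by the TMM method. In bulk RNA, fewer cells of a type and less RNA per cell cannot be told apart.

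Replicate 3 of each group stood apart from the other 3 and resembled the other group. Across 16944 tested genes, the log2 CPM of the library labelled DE 3 correlated at r = 0.975, 0.975 and 0.966 with E 1, E 2 and E 4. Its r with DE 1, DE 2 and DE 4 was 0.881, 0.919 and 0.911. The library labelled E 3 correlated at 0.950, 0.966 and 0.954 with DE 1, DE 2 and DE 4, and at 0.899, 0.902 and 0.919 with E 1, E 2 and E 4. These correlations are across genes of libraries from 1 experiment and describe the libraries only. Labels were kept as given, and the counts, most lists and most genes whose test changes are shown with and without both replicates 3.

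**Figure D1:**
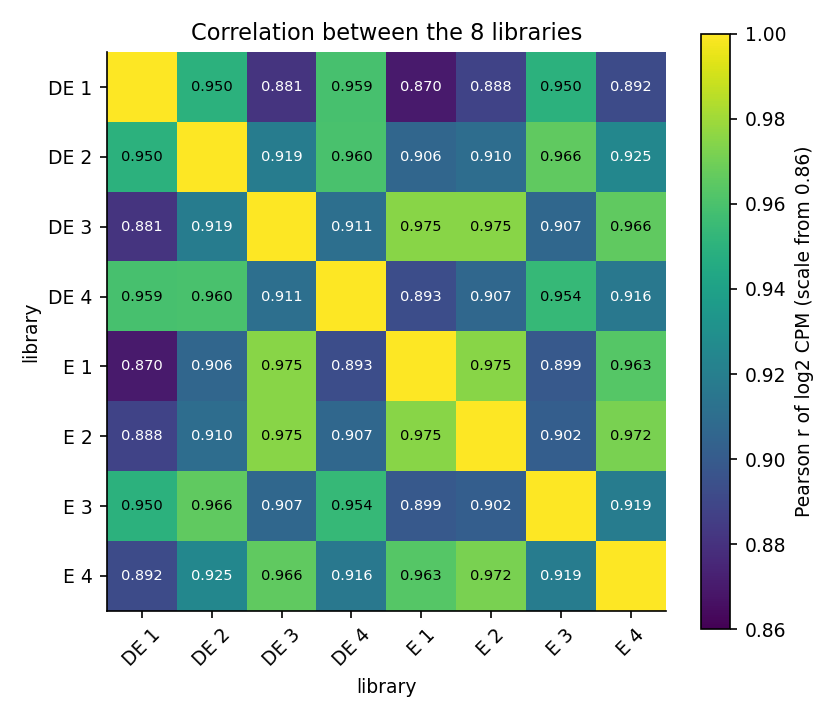
Pearson correlation of log2 CPM over 16944 genes between each pair of the 8 libraries, with the colour scale starting at 0.86. The library labelled DE 3 has its highest values with E 1 and E 2 (0.975 each), and the library labelled E 3 its highest with DE 2 (0.966).

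Genes of the oviduct epithelium showed the same arrangement. Ovgp1, the oviductal glycoprotein of secretory cells, was counted 85796, 69214, 40 and 35807 times in DE 1 to DE 4. In E 1 to E 4 it was counted 23, 46, 57557 and 14 times. Foxj1, the transcription factor of motile ciliated cells, gave 1237, 815, 8 and 513 counts in DE 1 to DE 4 against 1, 3, 708 and 4 in E 1 to E 4. So 3 libraries of DE and E 3 were high in both genes, and 3 libraries of E and DE 3 were near 0. All 4 PE libraries were on the high side and all 4 KO (anestrus) libraries on the low side: the 20 ciliated cell markers summed to 592 to 932 CPM in PE and to 67.6 to 96.2 CPM in KO (anestrus).

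The whole marker lists behaved like these 2 genes. The 20 ciliated cell markers summed to 1020, 529, 67.5 and 520 CPM in DE 1 to DE 4 and to 58, 56.2, 587 and 58.9 CPM in E 1 to E 4. The 12 secretory cell markers summed to 8140, 4900, 27.1 and 3700 CPM in DE and to 26.7, 25.5, 5530 and 30.4 CPM in E. In DE 3, 2 of the 20 ciliated and 3 of the 12 secretory markers were at 0 counts; Dynlrb2 and Sntn were the ciliated ones. In E 1, 5 and 4 were at 0, in E 2 and in E 4, 1 and 4, and in E 3 none of either list. A count of 0 here allows up to 3 counts in that library.

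With all libraries in place, no single gene passed the test. edgeR's quasi-likelihood test, fitted over the 16 libraries of the experiment, called 0 of 16944 genes (0.0%) in either direction at an adjusted p under 0.05, and the smallest adjusted p was 0.44. At an unadjusted p under 0.05 stood 1008 genes higher at DE (5.95%) and 788 lower (4.65%), together 1796 (10.6%). DESeq2 called 10 genes on the same libraries, 4 higher at DE (0.0151%) and 6 lower (0.0226%), and limma voom called 0. Among the 10 were Ccl21b, at 11.2, 33.1, 0 and 3.01 CPM in DE and 0 in all E libraries, and Rpl3-ps1. Rpl3-ps1 stood at 0.45 to 2.39 CPM in DE and at 698, 5.61, 565 and 1.85 CPM in E. Both differed widely within a group, so their calls are uncertain. Read from the libraries alone, 187 genes had all 4 DE libraries above all 4 E libraries (1.1%) and 312 had all 4 below (1.84%), 499 in all (2.94%).

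Without the libraries labelled DE 3 and E 3 the picture was another one. edgeR then called 2084 of 17155 genes higher at DE (12.1%) and 666 lower (3.88%), and 1689 of these differed at least 2-fold, 1498 of them higher at DE and 191 lower. These libraries were left out because they lie far from their groups, so the counts describe the remaining 6 libraries and are no independent evidence of a difference between the stages. In the libraries that were left out the direction was mostly the opposite one, both for genes called higher and for genes called lower. Of 2070 genes called higher at DE and tested in both fits, DE 3 was below E 3 in 1991 (96.2%). Their median difference was -1.40 on the log2 scale. Of 665 genes called lower, DE 3 was below E 3 in only 127 (19.1%) and above it in 538 (80.9%), with a median difference of 0.23. Over all 16944 genes DE 3 was below E 3 in 49.2%. E 3 weighed most on the count: without it alone, edgeR called 937 genes higher (5.44%) and 102 lower (0.592%), 936 and 101 of which were also called without both. Without DE 3 alone it called 2 higher (0.0116%), Tmem269 and Rbpms, and 0 lower.

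**Figure D2:**
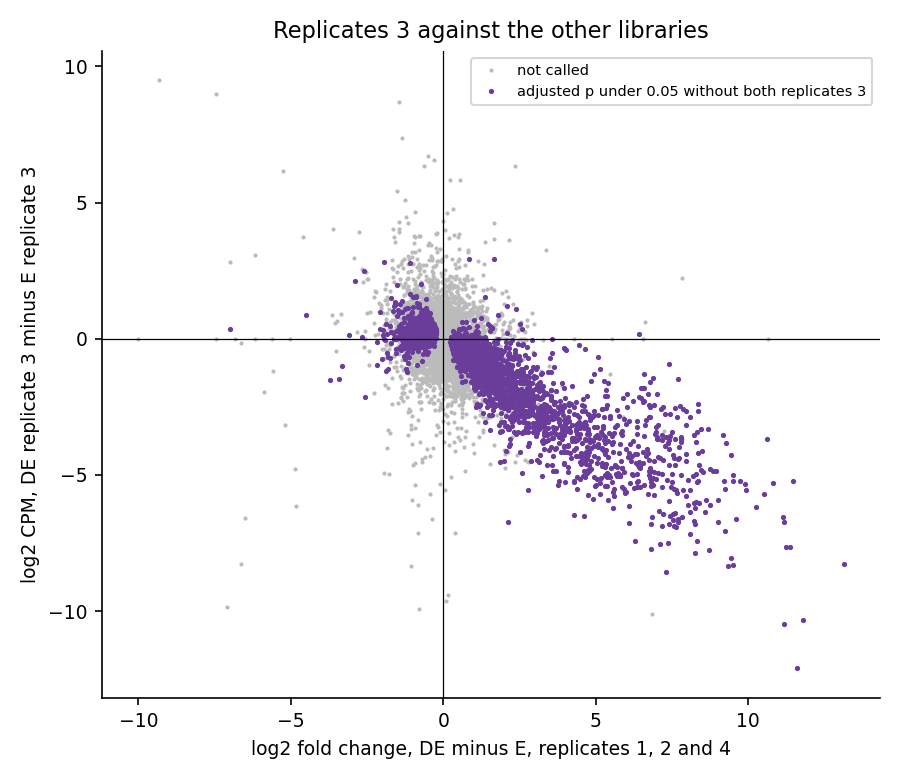
Each point is a gene; the x axis is the log2 fold change of DE against E in replicates 1, 2 and 4, and the y axis the log2 CPM difference between the libraries labelled DE 3 and E 3. Purple genes have an adjusted p under 0.05 in edgeR without both replicates 3, and of those higher at DE 96.2% lie below 0 on the y axis.

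The 8 genes with the largest difference among those higher at DE without both replicates 3 were Serpina1e, A2ml1, Cfap65, Slc23a1, Wfdc18, Ovgp1, Alox12e and Fam216b. Each was high in DE 1, DE 2, DE 4 and E 3 and near or at 0 in DE 3, E 1, E 2 and E 4. A2ml1, a protease inhibitor of the alpha-2-macroglobulin family, stood at 409, 912, 0.075 and 259 CPM in DE and at 0.0877, 0.255, 1030 and 0.0926 CPM in E. Cfap65, a protein of motile cilia, stood at 44.2, 20.3, 0.525 and 20.0 CPM in DE and at 0, 0, 25.5 and 0 CPM in E. In the fit with all libraries none of the 8 had an unadjusted p under 0.05. Of the oviduct lists, 19 of the 20 ciliated and 11 of the 12 secretory markers were called higher at DE without both replicates 3, beside 12.1% of all genes. The part of oviduct tissue in the other calls was not tested.

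A smaller set of genes separated the 2 labels in all 8 libraries, DE 3 and E 3 included, and most of it was lower at DE. At a mean of at least 5 CPM, 241 genes had every DE library below every E library, 21 of them at least 2-fold. Another 128 genes had every DE library above, 5 of them at least 2-fold. Over all 16944 tested genes, at any level, the shares were 1.84% below and 1.1% above. Random order of the 8 libraries would by itself separate a share of genes close to the 2.94% seen in both directions together. The size of the set is therefore no evidence of a difference between the labels, and the set was not tested against random order. The named genes of this set had the smallest p in the comparison, so their p-values describe how they were chosen. That includes those given below for the fit without both replicates 3, which uses libraries of the same 8. None of these genes had an adjusted p under 0.44 in edgeR with all libraries. Beside them stand values from a second fit, which holds the mean log2 CPM of the 20 ciliated cell markers as a covariate (the ciliated covariate). This mean was 4.35 to 5.37 in DE 1, DE 2 and DE 4 and 4.57 in E 3. In DE 3 it was 0.27, and in E 1, E 2 and E 4 it was -0.57 to 0.07. The second fit therefore leans on DE 3 and E 3, and whether a difference came from oviduct tissue was not tested. With the covariate, edgeR called 1 gene of 16944 lower at DE (0.0059%), Prap1, and 0 higher (0.0%). Prap1 stood at 174 CPM in E 3 and at 0 in E 1, E 2 and E 4, so this call rests on E 3. At an unadjusted p under 0.05 the covariate fit left 335 genes higher (1.98%) and 410 lower (2.42%), 745 in all (4.4%).

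Pcyox1, prenylcysteine oxidase 1, a lysosomal enzyme that breaks down the remnants of prenylated proteins, lies at chr6:86386006-86397154 (GRCm38). It stood at 274, 304, 299 and 294 CPM in DE 1 to DE 4 and at 465, 557, 558 and 903 CPM in E 1 to E 4. Every E library was above every DE library, and DE 3 and E 3 sat with their labels. The means were 293 ± 12.9 and 621 ± 193 CPM (SD, n = 4 each), with a log2 fold change of -1.08 (SE 0.19). The value was -1.03 with the ciliated covariate and -1.14 without both replicates 3, where edgeR's adjusted p was 0.0038; over all alternatives it ran from -1.19 to -0.84. DESeq2 on all libraries gave an adjusted p of 0.00024, and the edgeR, DESeq2 and limma voom alternatives ran from that to 0.8.

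Pik3c2g, a class II phosphoinositide 3-kinase at chr6:139587221-139969284, showed the largest difference of these genes. It stood at 13.2, 2.90, 24.5 and 24.6 CPM in DE and at 106, 43.4, 109 and 91.5 CPM in E. The lowest E library was above the highest DE library, and the 4 PE libraries, at 7.27 to 15.2 CPM, lay within the range of DE. The log2 fold change was -2.43 (SE 0.53), -2.34 with the covariate and -2.57 without both replicates 3. DESeq2 gave an adjusted p of 0.015, while edgeR's was 0.44 with all libraries and 0.013 without both replicates 3; over the alternatives of these tools and limma voom it ran from 0.013 to 0.8.

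Stretches before RefSeq starts of Pcyox1 and Pik3c2g are shown because, with Adamts16, these genes had the largest fold changes among the 10 genes of smallest p that were lower at DE. Each is the 250 bases before a gene start in RefSeq (GRCm38.p6), read 5′ to 3′ on the gene's strand, at chr6:86397151-86397400 on the minus strand for Pcyox1 and at chr6:139613822-139614071 on the plus strand for Pik3c2g. The Pik3c2g window lies inside the GENCODE span of the gene given above, so it is not the stretch before the first start annotated there.
Pcyox1: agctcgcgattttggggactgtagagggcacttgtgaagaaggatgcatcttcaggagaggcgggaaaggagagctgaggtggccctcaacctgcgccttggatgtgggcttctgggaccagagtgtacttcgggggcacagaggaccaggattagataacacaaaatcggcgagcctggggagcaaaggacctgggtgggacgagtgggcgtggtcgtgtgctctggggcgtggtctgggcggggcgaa
Pik3c2g: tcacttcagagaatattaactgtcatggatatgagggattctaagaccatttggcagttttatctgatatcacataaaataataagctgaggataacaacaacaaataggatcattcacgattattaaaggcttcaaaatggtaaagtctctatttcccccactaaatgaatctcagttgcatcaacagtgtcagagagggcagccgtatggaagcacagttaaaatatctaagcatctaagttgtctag
The Pcyox1 window is 60.4% G or C with 13 CG pairs, and that of Pik3c2g 36.0% with 2 CG pairs, where the median of 32851 such windows is 52.4% and 6 pairs. The window of a second RefSeq start of Pik3c2g, at chr6:139841195-139841444 and also inside that span, has 40.0% and 3 pairs. Searched on both strands, none of the 3 windows held AAGGTCA, the binding letters of NR5A nuclear receptors, nor TGACGTCA, the cAMP response element, nor the full estrogen response element. These occur in 4.08%, 1.55% and 0.0639% of all windows.

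Other genes lower at DE in every library included Sdc1, Adamts16, Hemk1 and Acad10. Sdc1, the cell-surface proteoglycan syndecan 1 (chr12:8771323-8793715), stood at 138, 158, 169 and 119 CPM in DE and at 257, 260, 269 and 383 CPM in E. Its log2 fold change was -1.0 (SE 0.22), and -0.88 with the covariate. Adamts16, a secreted metalloprotease (chr13:70727802-70841811), was low throughout, at 3.04, 2.90, 4.13 and 2.04 CPM in DE and 7.19, 4.97, 9.73 and 6.30 CPM in E, and again no library crossed. Its log2 fold change was -1.21 (SE 0.26), and -1.24 with the covariate. Hemk1, a methyltransferase of translation release factors, gave -1.03 (SE 0.24), and Acad10, of the acyl-CoA dehydrogenase family, -0.74 (SE 0.17). The scaffold gene Ank2, the kinase gene Sbk1 and the transcription factor gene Klf11 differed by -0.63, -0.80 and -0.28, all without overlap. With the covariate the log2 fold change was -0.93 for Hemk1, -0.76 for Acad10, -0.62 for Ank2, -0.53 for Sbk1 and -0.26 for Klf11. In the fit without both replicates 3, each of the lower genes named here by smallest p had an adjusted p of 0.036 or less in edgeR. That fit uses libraries by which these genes were chosen, so these p-values are no independent support.

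On the other side the differences were smaller. Bbs7, a subunit of the BBSome that carries cargo to primary cilia (chr3:36573142-36613477), stood at 20.2, 16.6, 17.0 and 18 CPM in DE and at 11, 12.3, 11.1 and 9.35 CPM in E. All DE libraries were above all E libraries, with a log2 fold change of 0.71 (SE 0.14), 0.65 with the ciliated covariate. Sgk3, a kinase downstream of phosphoinositide signalling (chr1:9798107-9900845), stood at 34.1, 40.2, 29.7 and 43.0 CPM against 21.6, 22.1, 29.2 and 22.5 CPM, so that DE 3 and E 3 nearly met. Its log2 fold change was 0.62 (SE 0.13) and 0.44 with the covariate. Bche, butyrylcholinesterase, stood at 67.6, 74.6, 66 and 57.6 CPM against 48.1, 35.5, 49.6 and 44.3 CPM. Its log2 fold change was 0.58, and 0.50 with the covariate. Osr1, a zinc-finger transcription factor gene, differed by 0.89 (SE 0.22), and by 0.57 with the covariate. With both replicates 3 left out the log2 fold change was 0.75 for Bbs7, 0.83 for Sgk3, 0.65 for Bche and 1.18 for Osr1, with adjusted p of 0.0095, 0.00028, 0.016 and 0.0025 in edgeR.

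The other genes of this kind were Wrb, Bcl7b, Ssx2ip, Rbpms, Cadps2 and Msrb3. Wrb, whose product inserts tail-anchored proteins into the endoplasmic reticulum, Bcl7b, of the BAF chromatin remodelling complex, and Ssx2ip, a centrosome protein gene, did not overlap and differed by 0.36, 0.49 and 0.55, or with the covariate by 0.26, 0.34 and 0.41. Rbpms, an RNA-binding protein gene, was crossed by the third replicates: it stood at 143, 103, 62.1 and 128 CPM in DE and at 49.6, 60.6, 73.6 and 65.3 CPM in E. Cadps2, of vesicle release, and Msrb3, which repairs oxidized methionine, were also crossed by DE 3 and E 3. The log2 fold change of Rbpms was 0.81, and 0.38 with the covariate, and that of Cadps2 was 1.05 and 0.56; with the covariate Msrb3 gave 0.33. Leaving both replicates 3 out, edgeR's adjusted p was 0.0044 for Wrb, 0.0035 for Bcl7b, 0.0017 for Ssx2ip, 7.5e-05 for Rbpms, 0.00019 for Cadps2 and 0.0014 for Msrb3. Chosen after their values were seen, from the genes whose libraries did not overlap and differed at least 2-fold, were Thrsp, of fat synthesis, at 1.57 (SE 0.59), and Ptger3, a prostaglandin E2 receptor, at 1.20 (SE 0.35) higher at DE. On the lower side were Plin5, a lipid droplet protein, at -1.97 (SE 0.69), and Myo7a, an unconventional myosin, at -1.52 (SE 0.42). With the covariate these 4 genes gave 0.98, 0.87, -1.33 and -1.23. Without both replicates 3, edgeR called Ptger3 (adjusted p 0.016) and Myo7a (0.025) but not Thrsp (0.089) or Plin5 (0.053).

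**Figure D3:**
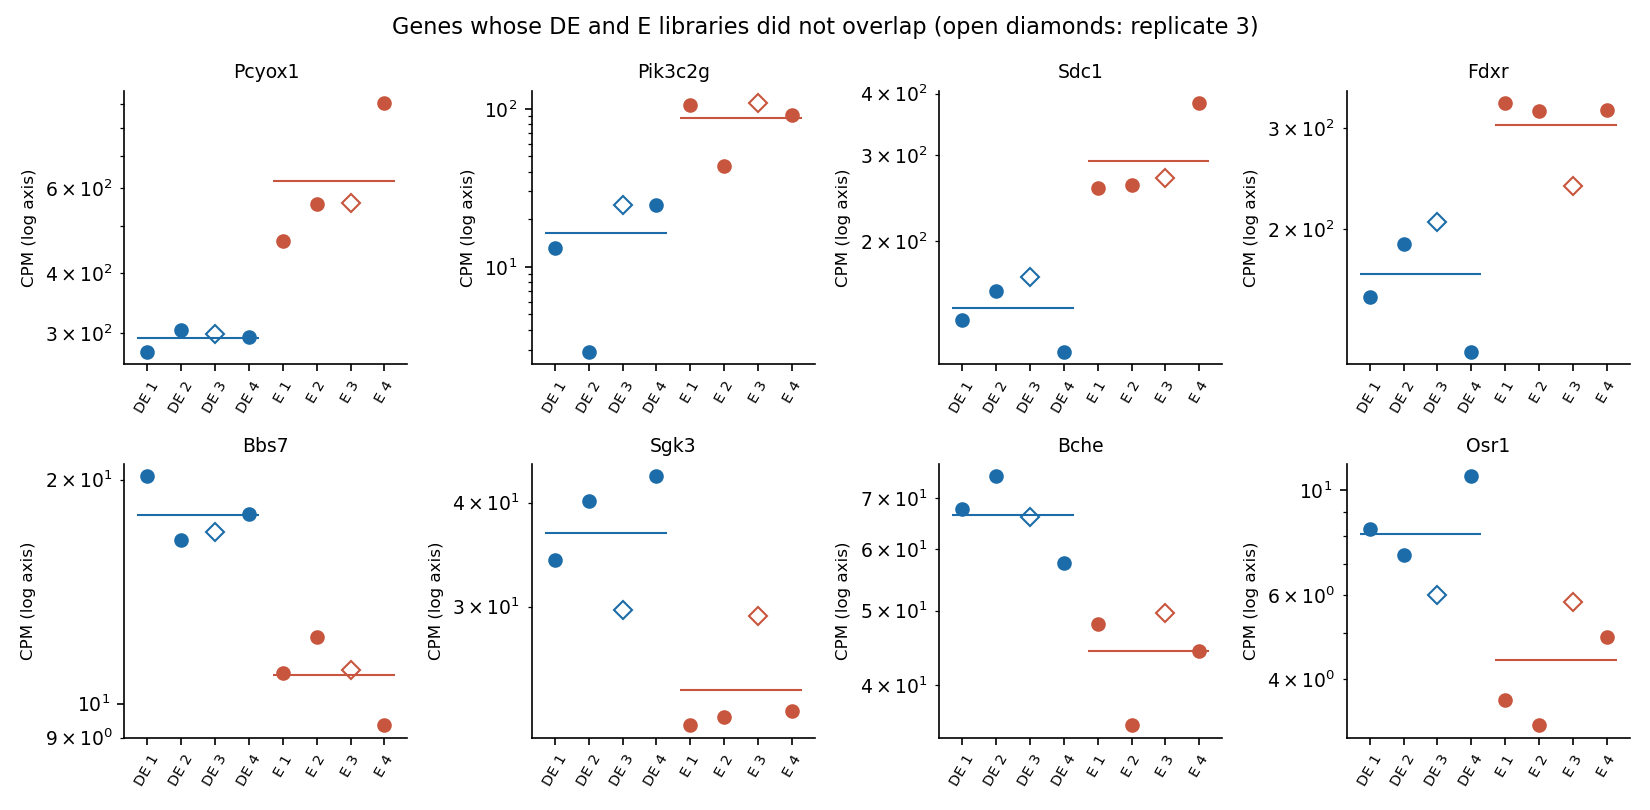
CPM on a log axis of 8 genes in each of the 8 libraries, blue for DE and red for E, with open diamonds for replicate 3 and lines at the group means. In every panel all DE libraries lie on one side of all E libraries, with the smallest gaps for Sgk3 and Osr1.

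Luteal genes of the steroid pathway had mostly negative fold changes, and none was called with all libraries. Of 20 luteal markers, 7 had an unadjusted p under 0.05 and were lower at DE, beside 4.65% of all genes, 0 were higher, and the median log2 fold change was -0.62, where all tested genes had a median of 0.00. The list summed to 12600, 7530, 15700 and 9340 CPM in DE and to 19100, 28800, 9680 and 16600 CPM in E. E 3 was the lowest E library and DE 3 the highest DE library, and E 1, E 2 and E 4 were above all 4 DE libraries. Without both replicates 3, edgeR called 6 of 20 lower, beside 3.88% of all genes, and 0 higher, with a median of -0.99. With the ciliated covariate the median was -0.22.

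Fdxr, ferredoxin reductase, which passes electrons to mitochondrial P450 enzymes, was the luteal gene that followed the labels in every library. It stood at 152, 188, 206 and 122 CPM in DE and at 332, 322, 238 and 323 CPM in E, a log2 fold change of -0.86 (SE 0.25), or -0.60 with the covariate. Cyp11a1, which cuts the side chain of cholesterol, stood at 2850, 1950, 3250 and 2280 CPM in DE and at 4860, 6610, 2410 and 4450 CPM in E. E 3 lay among the DE libraries, and the log2 fold change was -0.83 (SE 0.33), with an adjusted p of 0.45 in edgeR; without both replicates 3 it was -1.16 with an adjusted p of 0.033. Hsd3b1, the next enzyme towards progesterone, and Idh1, a cytosolic source of NADPH, gave -0.60 and -0.85. When both replicates 3 were left out, edgeR's adjusted p was 0.019 for Fdxr, 0.0055 for Hsd3b1 and 0.032 for Idh1.

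Star, which brings cholesterol into mitochondria, and Lhcgr, the LH receptor gene, varied too much to pass in either fit. Star stood at 771, 266, 1110 and 158 CPM in DE and at 1370, 3240, 342 and 893 CPM in E, and Lhcgr at 327, 88.6, 515 and 240 CPM against 811, 1240, 215 and 294 CPM. The log2 fold changes were -1.34 (SE 0.82) and -1.13 (SE 0.62), and in edgeR without both replicates 3 the adjusted p was 0.14 and 0.082. The genes of luteal regression differed more within the groups than between them. Akr1c18, which degrades progesterone, stood at 214, 5.34, 479 and 298 CPM in DE and at 33.3, 1040, 29.2 and 353 CPM in E. Ptgfr, the receptor for prostaglandin F2-alpha, was at 435, 19.7, 448 and 432 CPM against 154, 991, 72.9 and 488 CPM. Both were lowest in DE 2 among the DE libraries and highest in E 2 over all 8. Prlr, the prolactin receptor gene, gave -0.67 (SE 0.39).

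Cyp17a1, the androgen-forming enzyme of theca and interstitial cells, split the DE group. It stood at 10.7, 4.95, 448 and 159 CPM in DE and at 5.88, 25.2, 5.34 and 2.50 CPM in E. DE 3 and DE 4 were far above the other 6 libraries, while PE ran from 2.71 to 772 CPM and KO (anestrus) from 621 to 1020 CPM. The log2 fold change was 3.97 (SE 1.52), and 2.34 without both replicates 3, with an adjusted p of 0.42 in edgeR. Over the 23 tested genes of steroid synthesis and metabolism, 1 was higher and 5 were lower at an unadjusted p under 0.05. The shares of all genes were 5.95% and 4.65%, and the median of the list was -0.16. Without both replicates 3, 1 was called higher and 4 lower, beside 12.1% and 3.88% of all genes. Of 24 cholesterol synthesis and uptake genes only Dhcr7, the last enzyme of the pathway, had an unadjusted p under 0.05, at 64.9, 54.3, 147 and 48.6 CPM in DE and 213, 270, 119 and 185 CPM in E. With both replicates 3 left out, 6 of 24 were called lower, beside the same 3.88%, and 0 higher, Dhcr7 at -1.99 and Fdps, farnesyl diphosphate synthase, at -1.25 among them; the median of the list was -0.63, and with the covariate and all libraries it was 0.20.

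**Figure D4:**
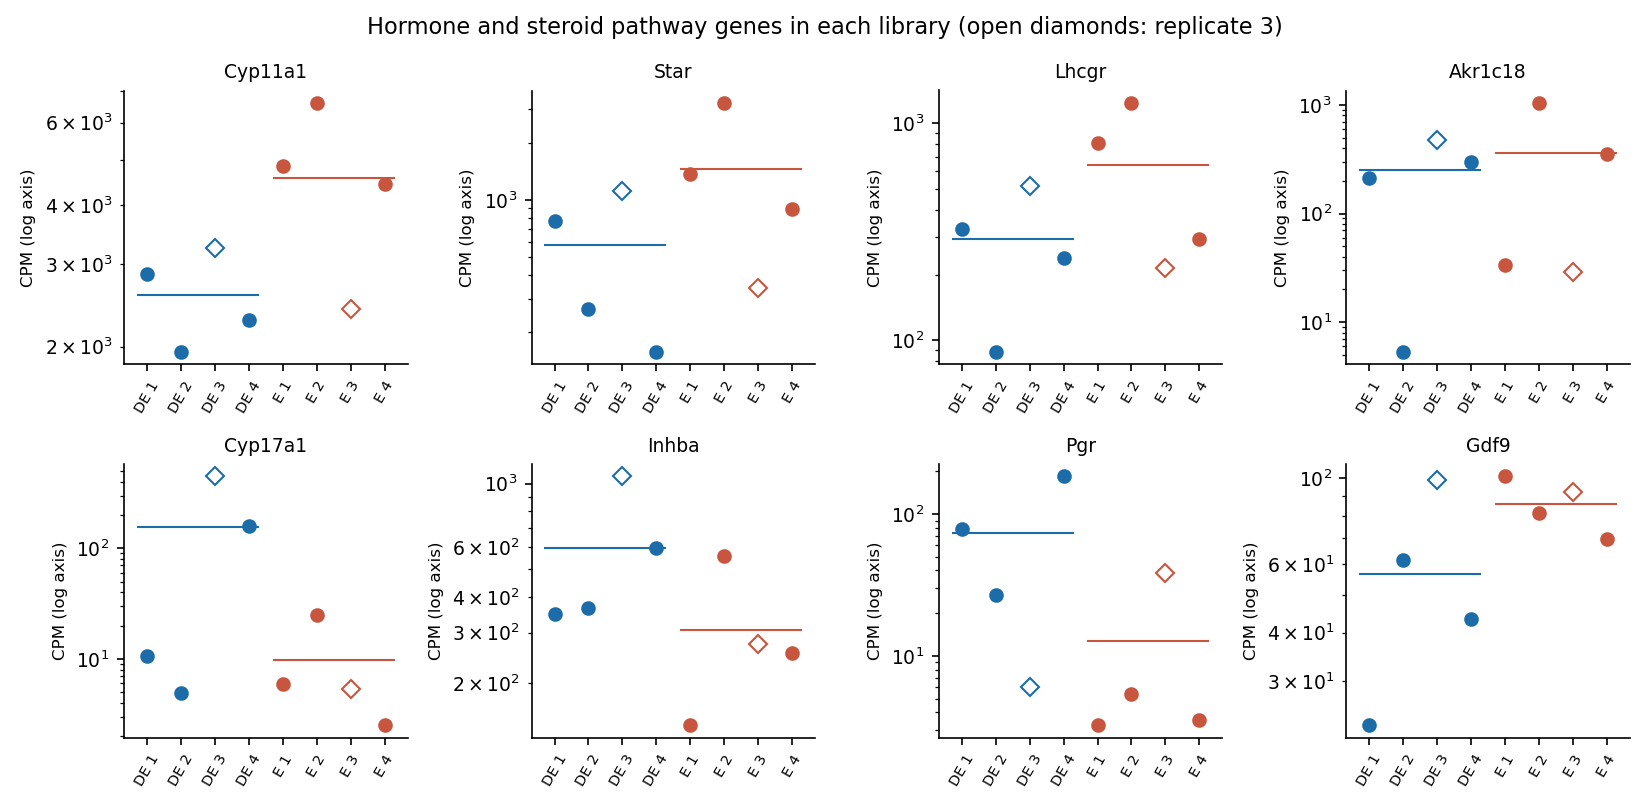
CPM on a log axis of 8 hormone and steroid pathway genes in each library, blue for DE and red for E, with open diamonds for replicate 3 and lines at the group means. The groups overlap in every panel; Cyp17a1 is high in DE 3 and DE 4 only, and Pgr is low in DE 3 and high in E 3.

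Granulosa cell genes showed no shift of the list. Of 30 markers, 1 was higher and 1 lower at an unadjusted p under 0.05, beside 5.95% and 4.65% of all genes. The median was -0.09. Without both replicates 3, edgeR called 3 lower, beside 3.88% of all genes. Inhba, the activin and inhibin beta A subunit, stood at 348, 366, 1060 and 596 CPM in DE and at 142, 557, 274 and 255 CPM in E, a log2 fold change of 0.95 (SE 0.71). Cyp19a1, aromatase, stood at 7.47, 16.2, 38.0 and 19.1 CPM against 3.77, 21.5, 16.7 and 4.63 CPM. The FSH receptor gene Fshr gave -0.10 (SE 0.44), Inha 0.08 (SE 0.29), Inhbb 0.31 (SE 0.40) and Amh, of small growing follicles, -0.32 (SE 0.31). None of these 6 genes had an unadjusted p under 0.05, and DE 3 held the highest level among the DE libraries in each. Esr2, estrogen receptor beta, gave -0.21 (SE 0.32) in all libraries and -0.82 without both replicates 3, with an adjusted p of 0.027 in edgeR. Foxl2 gave -0.49 and -0.73 in the same 2 fits, the second with an adjusted p of 0.029. Igf1, a growth factor of growing follicles, at 0.89 (SE 0.35), rested on DE 4: its level there was 508 CPM, against 116 to 206 CPM in the other 7 libraries.

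Oocyte genes were lower in 3 DE libraries, and not in DE 3. The 26 oocyte markers summed to 327, 696, 1180 and 524 CPM in DE and to 1210, 992, 1090 and 840 CPM in E, with DE 3 among the E libraries. The median log2 fold change was -0.69 and 25 of 26 had a negative sign. Of the list, 8 had an unadjusted p under 0.05, all lower at DE, beside 4.65% of all genes. Without both replicates 3, edgeR called 19 of 26 lower and 0 higher, against 3.88% of all genes, with a median of -1.10. With the ciliated covariate the median was -0.42. The 4 smallest p of the list were those of Tle6, Ddx4, Padi6 and Nlrp5. Tle6, a maternal protein of the oocyte cortex like Nlrp5, was at 23.3, 38.4, 62.2 and 27.4 CPM in DE and at 72, 64.5, 60.5 and 49.2 CPM in E. Padi6, of the oocyte's cytoplasmic lattices, gave -0.77 (SE 0.31) and Ddx4, a germ-cell helicase, -0.92 (SE 0.35). Gdf9 stood at 23.1, 61.4, 98.7 and 43.3 CPM against 101, 81.2, 92.1 and 69.6 CPM, with -0.60 (SE 0.31) and an adjusted p of 0.50 in edgeR. These 5 oocyte genes were among the 19 edgeR calls made without both replicates 3, at -1.05 for Tle6, -1.22 for Ddx4, -1.11 for Padi6, -1.19 for Nlrp5 and -0.97 for Gdf9. The lowest oocyte sum of all was that of DE 1, which also held the highest sum of ciliated and secretory markers.

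Genes of the LH surge and ovulation were mixed. Of 23 tested, 3 were higher and 1 lower at an unadjusted p under 0.05, beside 5.95% and 4.65% of all genes. Pgr, the progesterone receptor gene that LH induces in granulosa cells and that the oviduct also uses, stood at 78.1, 27.0, 6 and 184 CPM in DE and at 3.24, 5.35, 38.7 and 3.52 CPM in E. It followed the oviduct markers library by library: the 4 libraries high in Ovgp1 held 27.0 CPM or more and the other 4 held 6 CPM or less. Its log2 fold change was 2.53 (SE 0.99) and 0.96 with the covariate. Has2, hyaluronan synthase of the expanding cumulus, stood at 1.64, 1.12, 1.20 and 3.81 CPM in DE and at 0.614, 0.892, 0.785 and 0.833 CPM in E, low in all but without overlap. The lower gene, Runx1, a transcription factor gene, rested on E 4 at 187 CPM, where the other 7 libraries ran from 30.2 to 68.3 CPM. Without both replicates 3, edgeR called 7 of the 23 higher, beside 12.1% of all genes, and 0 lower; Pgr was then at 4.55 with an adjusted p of 0.0033 and Has2 at 1.46 with 0.044.

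Muscle and epithelial genes were higher in the libraries high in oviduct markers. Of 12 smooth muscle genes, 7 had an unadjusted p under 0.05 and were higher at DE, beside 5.95% of all genes, 0 were lower, and all 12 had a positive sign, with a median of 0.86. Their sum was 5590, 3770, 2540 and 7160 CPM in DE and 1570, 1780, 4160 and 3020 CPM in E, with E 3 the highest E library and DE 3 the lowest DE library. The covariate took the median to 0.25, and without both replicates 3 it was 1.34 with 10 of 12 called higher, beside 12.1% of all genes. Acta2, smooth muscle actin, stood at 1390, 974, 776 and 2110 CPM in DE and at 416, 507, 1070 and 800 CPM in E. Mylk, myosin light chain kinase, Synpo2 and Cnn1, of the contractile apparatus, gave 0.80, 1.33 and 1.47. All 4 were called without both replicates 3, at 1.38, 1.25, 2.08 and 2.27, with an adjusted p of 0.024 or less in edgeR. Of 13 ovarian surface epithelium markers, 1 had an unadjusted p under 0.05, Krt7, and 6 were called higher without both replicates 3, beside the same 12.1%. Cdh1, E-cadherin, which oviduct epithelium also carries, was at 185, 102, 13.2 and 145 CPM in DE and at 13.0, 10.3, 131 and 11.6 CPM in E.

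Fat cell genes followed another order. The 10 adipocyte genes summed to 526, 3370, 840 and 2200 CPM in DE and to 658, 963, 428 and 1090 CPM in E. By this sum DE 2 and DE 4 were the highest, and DE 1, the library highest in oviduct markers, was the second lowest of all 8. By the mean log2 CPM of the list, DE 1, at 4.71, was above E 1, E 2 and E 3, at 3.69, 3.94 and 4.58. The median log2 fold change was 1.96. An unadjusted p under 0.05 was seen in 2 of 10, both higher at DE, beside 5.95% of all genes. Without both replicates 3 edgeR called 1 higher, Lep, the hormone leptin, beside 12.1% of all genes. Lep stood at 1.64, 27.1, 1.13 and 8.24 CPM in DE and at 0.438, 0.319, 1.49 and 0.741 CPM in E. Plin1, which coats lipid droplets, gave 1.59 (SE 0.58).

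**Figure D5:**
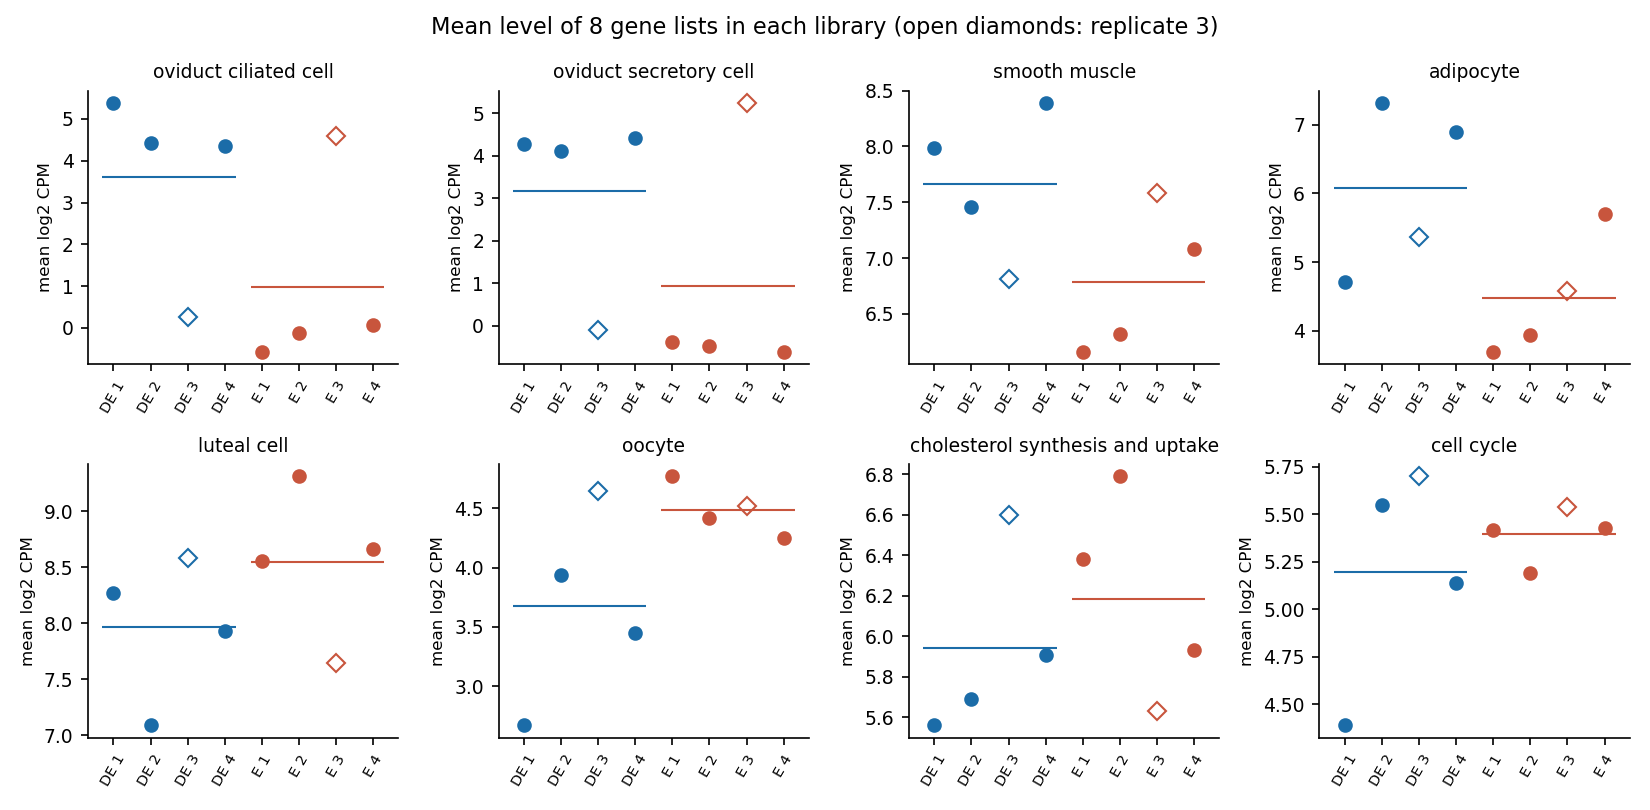
Mean log2 CPM of the tested members of 8 gene lists in each library, blue for DE and red for E, with open diamonds for replicate 3 and lines at the group means. Oviduct and smooth muscle lists are high in E 3 and low in DE 3, the luteal and cholesterol lists are the reverse, and the cell cycle list is lowest in DE 1.

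Hormone receptors and growth factor families gave few candidates. Of 17 hormone receptor genes, 3 were higher and 2 lower at an unadjusted p under 0.05, beside 5.95% and 4.65% of all genes. Ptger2, a prostaglandin E2 receptor of ovulating follicles, stood at 12.2, 14.7, 18 and 11.2 CPM in DE and at 17.6, 19.7, 19.0 and 28.1 CPM in E, with -0.59 (SE 0.16). Oxtr, the oxytocin receptor gene, was at 89.7, 48.1, 106 and 74.7 CPM against 328, 253, 87.3 and 109 CPM, so E 1 and E 2 set its difference of -1.29 (SE 0.50). Ptger4, another prostaglandin E2 receptor gene, was at 24.9, 19.2, 5.03 and 30.0 CPM in DE and at 5.44, 6.82, 18.6 and 4.26 CPM in E, again low in DE 3 and high in E 3. Of 30 genes of the inhibin, activin and TGF-beta family, Tgfb2 was higher (0.60, SE 0.18) and Tgfb3 lower (-0.42, SE 0.15) at an unadjusted p under 0.05; both encode secreted ligands. Of 23 WNT pathway genes, 2 were higher and 2 lower, with Znrf3, a WNT receptor ligase that dampens the pathway, at -0.49 (SE 0.17) and Rspo1, its secreted antagonist, at 0.91 (SE 0.33), which the covariate took to 0.27. Once both replicates 3 were left out, edgeR called 12.1% of all genes higher and 3.88% lower. Of the hormone receptor genes it called 3 higher and 2 lower. Of the inhibin, activin and TGF-beta family it called 1 and 3, and of the WNT pathway 4 and 1. Ptger4 (2.16, adjusted p 3.9e-05), Ptger2 (-0.77, 0.0052), Tgfb2 (0.81, 0.0093), Rspo1 (1.42, 0.0041) and Znrf3 (-0.61, 0.047) were among these calls. Oxtr, at -1.69 with an adjusted p of 0.063, and Tgfb3, at -0.39 with 0.17, were not.

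Immediate early genes, the first to respond to many stimuli, overlapped between the groups as a list. Their sum was 1410, 844, 846 and 1240 CPM in DE and 1340, 1400, 813 and 1180 CPM in E. Of 21 genes, 6 were higher and 1 lower at an unadjusted p under 0.05, beside 5.95% and 4.65% of all genes, with a median of 0.17. The fit without both replicates 3 called 1 higher and 2 lower, beside 12.1% and 3.88% of all genes. Egr3 stood at 11.3, 1.39, 5.25 and 8.33 CPM in DE and at 3.24, 3.19, 1.41 and 1.94 CPM in E, with the lowest of all libraries in DE 2. Of 12 heat shock genes, 3 were higher and 1 lower, and Hspb1, a small chaperone of muscle, gave 1.10 (SE 0.38), or 0.25 with the covariate; without both replicates 3 it was at 1.56, with an adjusted p of 0.0013 in edgeR, and the list had 2 called higher and 1 lower. Of 13 genes of the mitochondrial genome, 2 were higher, and their sum was 54100, 48800, 35400 and 43300 CPM in DE and 37800, 41900, 37000 and 35900 CPM in E. DE 1 and DE 2 had the highest mitochondrial share and DE 3 the lowest.

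For the remaining lists the counts at an unadjusted p under 0.05 were small, beside 5.95% of all genes higher and 4.65% lower at DE. They were 2 higher and 1 lower of 15 theca and interstitial genes, with a median of -0.02. None of 32 cell cycle genes, 22 interferon response genes, 8 lymphocyte, 5 erythrocyte, 2 neutrophil and 2 histone genes had such a p. Of 20 macrophage genes 2 were higher, of 19 endothelial and vessel growth genes 2 were higher, and of 3 skeletal muscle genes 2 were higher. Matrix proteases and their inhibitors had 2 of 22 lower, and fibrillar collagen and matrix genes 4 of 20 higher, among them Col6a3 at 0.92 (SE 0.35), whose level of 650 CPM in DE 4 was the highest of all. Among 19 circadian clock genes 2 were higher and 1 lower, with Rora, an orphan receptor gene, at -0.87 (SE 0.35). In the fit without the replicates 3, edgeR called 12.1% of all genes higher and 3.88% lower. In these lists it called 3 protease and 3 collagen or matrix genes higher, and 1 of the latter lower. It also called 2 endothelial, 2 skeletal muscle, 1 theca and 1 macrophage gene higher, and 1 cell cycle gene lower. Col6a3 (adjusted p 0.079) and Rora (0.085) were not called. The cell cycle sum was 881 CPM in DE 1 and 1420 to 2130 CPM in the other 7 libraries.

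Some of the genes that set the replicates 3 apart were not oviduct markers. At a mean of at least 5 CPM over the 8 libraries, 652 genes were at least 1 log2 unit below the next DE library in DE 3 and 55 were above; in E 3, 562 were above the next E library and 42 below. Above the other DE libraries in DE 3 was Bhmt, of the methionine cycle, at 93.3 CPM against 7 to 19.9 CPM. That level lay within the range of the E libraries, 51.2 to 272 CPM. Gpnmb and Mmp12, which mark lipid-laden macrophages in other tissues, were also higher in DE 3, at 107 and 41.5 CPM. The PE libraries reached 233 CPM of Gpnmb and 39.9 CPM of Mmp12. Below the other E libraries in E 3 was Fshb, the FSH beta subunit gene, with 0 counts, which allows up to 3. E 1, E 2 and E 4 held 50, 170 and 60 counts and the DE libraries 86, 70, 198 and 60. In the PE libraries Fshb ran from 0 to 4.18 CPM. Prap1, a secreted protein of uterine and gut epithelium, held 2216 counts in E 3, 0 in the other E libraries and 21, 11, 0 and 11 in DE 1 to DE 4. The PE libraries, high in oviduct markers, held 0.98 to 1.74 CPM of it, where E 3 held 174 CPM.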

How the data were processed

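Per the labels' protocols, ovary RNA was column-purified, treated with DNase and selected for poly(A), and KAPA libraries were read from both ends on a NovaSeq. The values deposited by the authors are estimated counts of reads (expected counts, not scaled to depth in the table) for 54347 gene identifiers in 33 libraries; 10.58% to 12.21% of the values in the 8 libraries compared were not whole. The submitters' processing notes name Salmon, DESeq2 and the build GRCm38. Versions, annotation and strand setting: not given in the sources used here. Reads of near-identical copies are divided by such estimates, so values of those genes are uncertain. All columns were matched to a sample, with 0 left over.

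Counts were rounded. Symbols and positions came from GENCODE M21, GRCm38 (53307 identifiers matched with their version, 54094 in all, 253 without a symbol). Every pair within a group differed by more than sampling noise (23.9 to 73.6 as chi-square over its degrees of freedom), so none was taken for a library deposited again; this does not show that they are independent samples. The test was edgeR 4.0.16 in R 4.3.3 (TMM, filterByExpr by group, robust glmQLFit, glmQLFTest) over the 16 libraries of the experiment, DE minus E, with Benjamini-Hochberg adjustment over 16944 genes and a threshold of 0.05. Intervals from 0 counts use 3 counts and cover counting error only. The procedure was tested on simulated data.

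The alternatives: DESeq2 1.42.0, where a gene with no adjusted p counts as not called, limma 3.58.1 voom with quality weights, median-of-ratios scaling, a filter of at least 1 count or of 1 CPM on average, a fit of the 8 libraries alone, the replicate number as a block, the mean log2 CPM (prior count 2) of 20 ciliated cell markers as a covariate, and libraries left out.

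Named genes are a panel of 16 hormone, receptor and steroid genes. To these were added 10 genes higher and 10 lower at DE, meant to be the largest differences among called genes; as none was called, they are those of smallest p with a mean of at least 5 CPM. Further ones are the 8 and 8 largest without both replicates 3, the 4 of smallest p from each list, and the 6 that set a replicate 3 apart on each side. The promoters shown were chosen after values were seen, as the 3 largest differences among the 10 lower genes; Adamts16 has no sequence here. The members, the 30 gene lists and the tests were chosen with earlier results of these data known.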

Additional observations from a re-analysis of the deposited data

Results flagged for a closer look

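In 7 of 92 group values checked, 1 library lay far from the other 3 of its group by Dixon's gap, the distance to the nearest library as a share of the group's range; chance gives about 1 in 20. Of these, 5 were in a replicate 3. The replicates 3 were already known to stand apart, and the lists share genes, so this tally is a description and no test. For the oviduct secretory list the gap was 0.934 of the range in DE, with DE 3 low, and 0.959 in E, with E 3 high. For the ciliated list it was 0.876 in E, with E 3 high. In DE 3 the steroid synthesis list was high, with a gap of 0.914, and so was the inhibin, activin and TGF-beta list, at 0.83. The heat shock list was high in DE 4, at 0.891. Ptgfr, the prostaglandin F2-alpha receptor gene, was low in DE 2, at 0.988, with 19.7 CPM against 432 to 448 CPM in the other DE libraries.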

How the results depend on the processing

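With all libraries kept, edgeR called 0 genes higher and 0 lower under median-of-ratios scaling, either filter on low counts and the fit of the 8 libraries alone, and limma voom also called 0. DESeq2 called 4 higher and 6 lower. The ciliated covariate gave 0 higher and 1 lower. Leaving out both replicates 3 gave 2084 higher and 666 lower. Leaving out 1 library at a time gave 0 to 937 higher and 0 to 102 lower; the counts above 0 came without E replicate 3 (937 and 102) and without DE replicate 3 (2 higher). The cause was not tested. Replicates that share a number were not treated as pairs in the main fit. Their deviations from the group means correlated at -0.387, -0.392, -0.754 and -0.044 for numbers 1 to 4. Libraries with different numbers gave -0.32 to 0.586. The replicates 3 stand apart in opposite directions and move both group means, so these values cannot show whether the numbers were paired. The fit with the replicate number as a block called 0 higher and 0 lower. Of the 91 genes named in the text, 61 passed the threshold without both replicates 3, 40 without E replicate 3, 7 with DESeq2, 2 without DE replicate 3, 1 with the covariate and 0 in the other fits. Some changed sign, none of them called in the fit concerned. Dynlrb2 and Sntn are themselves among the ciliated cell markers of the covariate, so their change with it is partly built in. The log2 fold change with the covariate became -0.78 for A2ml1, 1.17 for Akr1c18, -0.32 for Alox12e, -0.02 for Cdh1, -0.04 for Dynlrb2, 0.23 for Esr2, -0.03 for Fam216b, 0.02 for Fdps, 0.12 for Fshr, -0.27 for Ovgp1, 0.74 for Ptgfr, -1.20 for Rps3a1, 3.07 for Rps3a2, 4.09 for Rps3a3, -1.47 for Serpina1e, -0.60 for Slc23a1, -0.10 for Sntn and -0.18 for Wfdc18. With the replicate block it became -0.24 for Gpnmb, -0.05 for Rps3a1, 1.33 for Rps3a2 and 2.79 for Rps3a3. With limma voom it became -0.74 for Gpnmb, -0.07 for Inha, -1.27 for Mmp12 and 2.61 for Prap1. With libraries left out, 1 at a time or both replicates 3, it ran across 0 from -0.21 to 11.62 for A2ml1, from -1.46 to 0.85 for Akr1c18, from -0.82 to 0.03 for Esr2, from -0.29 to 1.27 for Fshb, from -0.62 to 0.16 for Fshr, from -0.84 to 0.47 for Gpnmb, from -0.20 to 0.24 for Inha, from -0.11 to 0.48 for Inhbb, from -0.81 to 0.99 for Mmp12, from -6.26 to 6.85 for Prap1, from -0.87 to 0.49 for Ptgfr, from -0.22 to 0.62 for Rps3a1, from -7.46 to 7.03 for Rps3a2, from -9.31 to 8.05 for Rps3a3 and from -0.38 to 11.79 for Serpina1e. Depth limits what can be said of markers near 0 counts.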

Other observations

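Some transcripts of near-identical copies were present in a few libraries and nearly absent from the others. Rps3a2 stood at 0.903, 1.06, 590 and 1.68 CPM in DE 1 to DE 4 and at 635, 1.66, 1.02 and 0.555 CPM in E 1 to E 4, and Rps3a3 at 0.164, 0, 227 and 0.266 CPM against 266, 0.127, 0.157 and 0.37 CPM. Both copies of the ribosomal protein gene Rps3a1 were thus high in DE 3 and E 1. The sum of Rps3a1, Rps3a2 and Rps3a3 ran only from 965 to 1180 CPM over the 8 libraries, so values of the single copies are uncertain.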
